A study of Mus musculus with 20 samples.

Results

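The 10 genes Ttr, Folr1, Enpp2, Sostdc1, Kl, Aqp1, Clic6, Kcne2, Prlr and Otx2 mark the epithelium of the choroid plexus and were followed here in the brain of mice with spinal muscular atrophy (SMA) and of their control littermates. They were chosen by gene symbol and make up 10 of the 45700 rows of the expression table. Brain RNA was sequenced in 20 libraries, with 2 replicates of each genotype and RNA fraction at postnatal day 5 (an early-symptomatic age) and 3 of each at postnatal day 7 (a late-symptomatic one). Brain lysates were run through sucrose gradients, and RNA was taken either from all fractions pooled (total cytoplasmic RNA) or from the polysomal fractions only, which hold mRNAs carrying several ribosomes. SMA mice were of the severe Taiwanese line (Smn-/-; SMN2tg/0), which lacks mouse Smn and carries the human SMN2 transgene. Controls were heterozygous (Smn-/+; SMN2tg/0), so both genotypes carried SMN2, and the line was congenic on FVB. Values are FPKM, fragments scaled to transcript length and to the mapped fragments of the library, which allow levels of different genes to be set side by side. The depth of each library is unknown from these values, so no counting error is given. Coordinates are gene spans of Gencode M21 on GRCm38, the build to which the reads had been aligned.

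The choroid plexus is a folded, secretory tissue inside the brain ventricles. Its epithelium makes the cerebrospinal fluid, forms the barrier between blood and that fluid through tight junctions, and sends carrier proteins, vitamins and growth signals into the brain. In bulk brain RNA, a lower level can come from fewer choroid plexus cells or from less RNA per cell and these cannot be told apart here.

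All 10 genes were above 0 in all 20 libraries, and 9 of 10 passed the filter of a mean of at least 1 FPKM. Ttr was far above the rest, with a mean of 710 FPKM over the 20 libraries. Its value was 91.2% of the summed FPKM of the 10 genes. Enpp2 followed at 35.7 FPKM and Folr1 at 14.1 FPKM, and the ranges of these 3 genes over the libraries did not overlap with each other or with that of any other member. Below them came Otx2 at 4.72, Sostdc1 at 3.31, Aqp1 at 3.24, Clic6 at 2.67, Kcne2 at 2.21, Prlr at 1.35 and Kl at 0.994 FPKM. Neighbours in this lower part of the order overlapped in their ranges over the libraries. Kl was the member just outside the filter and Prlr the one just inside it.

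Of other tissues that could add these transcripts, pituitary markers were low. Gh, Prl, Cga and Tshb each had a mean below 1 FPKM, and the most abundant marker, Pomc, had a mean of 1.37 FPKM. In the list for retina and pineal gland, Asmt was listed at 0 in all 20 libraries, and Crx, Aanat and Tph1 had means below 1 FPKM. The most abundant gene of that list was Rlbp1, at 10.4 FPKM. For ependymal cells, which line the ventricles beside the plexus, all 8 markers were above 1 FPKM.

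The 2 early control polysomal libraries stood apart in genes listed at 0. Tubb3, a tubulin that all neurons make, was listed at 0 in both, and at 561.92 FPKM or more in each of the other 18 libraries. In all, 63 tested genes were listed at 0 in these 2 libraries and at 1 FPKM or more in all others, beside 0 to 2 genes for the other groups of libraries. The other 5 neuron markers summed to 523.67 and 509.44 FPKM there, against 479.98 and 526.43 FPKM in early SMA polysomal RNA. None of the 10 choroid plexus genes was among those at 0, and the part of these libraries in the day 5 polysomal results below, including those of Prlr, was not tested beyond leaving out each in turn.

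**Figure D1:**
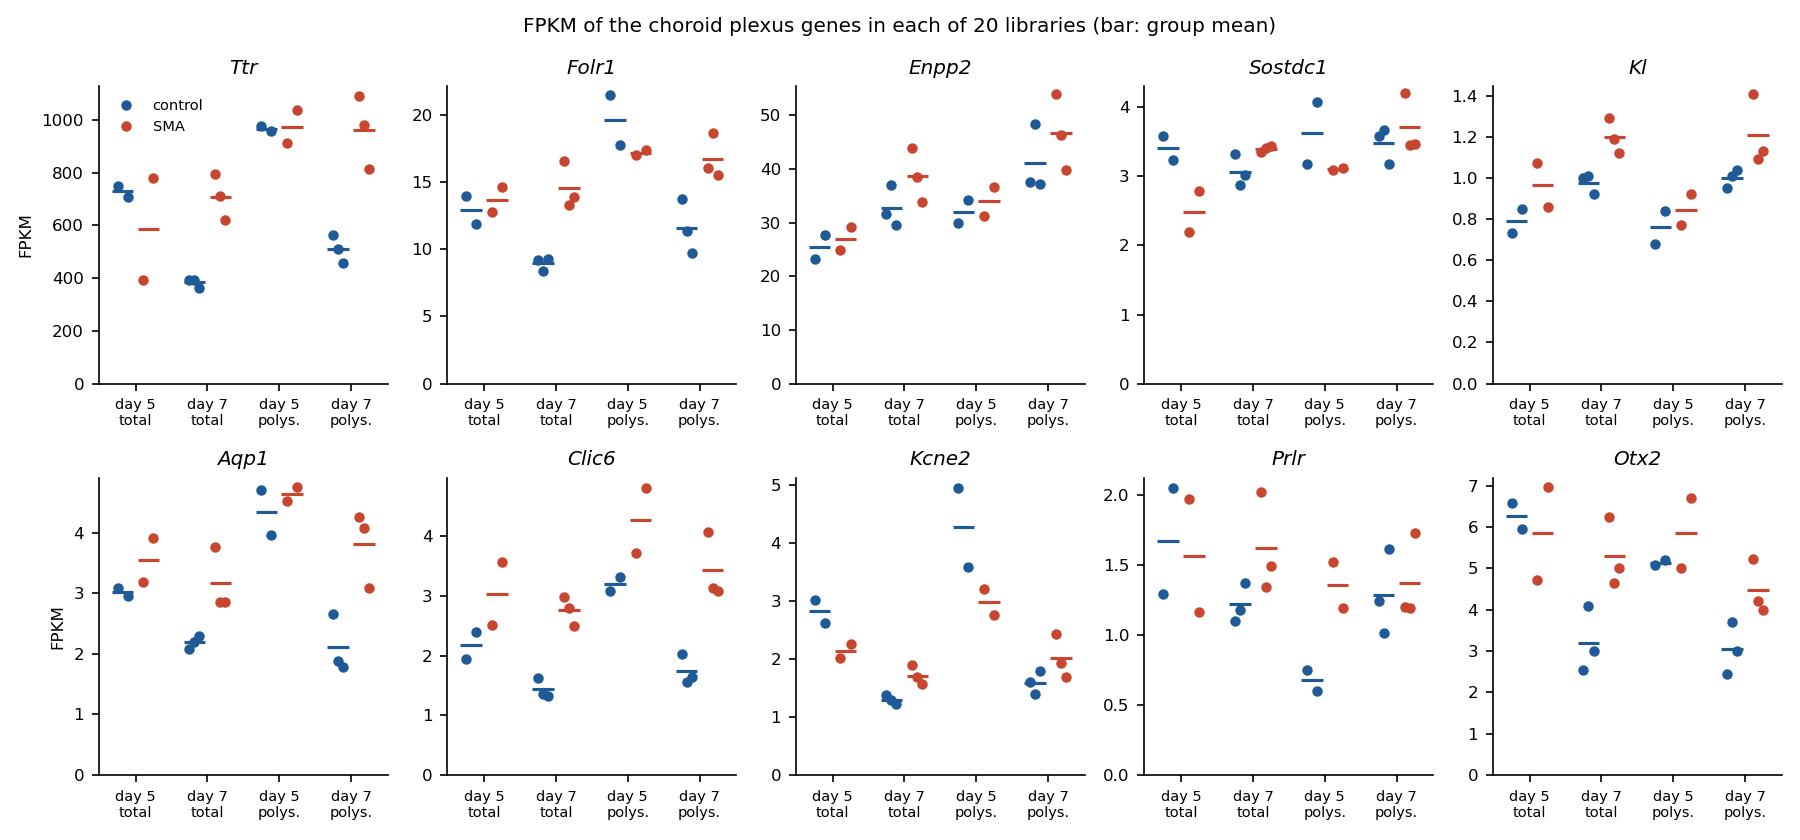
FPKM (linear axis from 0) of each gene in each library, by age and RNA fraction; points are libraries, bars are group means, blue is control and red is SMA. In late total RNA the control and SMA libraries of Ttr, Folr1, Aqp1, Clic6, Kcne2 and Otx2 do not overlap, whereas in early total RNA those of Ttr, Folr1 and Otx2 do.

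The main question of the series is how SMA changes the transcriptome and the polysome-bound RNA at each stage. At the late stage most, but not all, of the tested choroid plexus genes were higher in SMA by an unadjusted test. In total RNA, 6 of the 9 tested genes rose in SMA (Ttr, Clic6, Folr1, Otx2, Aqp1 and Kcne2) and none fell, at an unadjusted limma p under 0.05, the threshold of the study, while 4.84% of all 15247 genes tested were called higher in the same comparison. The median log2 difference over the 9 genes was 0.50, against 0.00 over all genes tested. In polysomal RNA, 5 of the 9 rose (Ttr, Clic6, Aqp1, Folr1 and Otx2) and none fell, beside 5.35% of all genes called higher, with a median of 0.54 against 0.00. None of the 9 passed Benjamini-Hochberg adjustment over all genes in either fraction, where limma called 17 genes (0.111%) in total RNA and 14 (0.0918%) in polysomal RNA. The 17 went down to 11 without SMA replicate 3, and the 14 to 6 without control replicate 2 and to 1 without SMA replicate 2. Rose, fell and called refer below to the unadjusted threshold, and each adjusted p is that of Benjamini and Hochberg over all genes. Libraries of the 2 genotypes did not overlap for 7 of the 9 genes in total RNA and for 5 of the 9 in polysomal RNA, all of them higher in SMA, while 7.63% and 7.86% of all genes tested did so in that direction.

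Ttr (chr18:20665280-20674321, plus strand) encodes transthyretin, the carrier of thyroid hormone and of retinol-binding protein that the plexus secretes into the cerebrospinal fluid. In late total RNA it was at 393.8, 393.36 and 363.62 FPKM in the control brains and at 794.26, 710.8 and 620.55 FPKM in the SMA brains. The lowest SMA brain was thus well above the highest control. The mean was 1.85 times higher in SMA (log2 difference 0.88, SE 0.10, limma adjusted p = 0.119). Polysomal RNA of the same stage held 563.95, 508.56 and 455.29 FPKM in controls and 1091.73, 981.01 and 814.22 FPKM in SMA. Here too the groups did not overlap, with a mean 1.89 times higher (log2 difference 0.91, SE 0.15, limma adjusted p = 0.192). In the table Ttr had a locus merged with those of Dsg2 and Gm16090, and these neighbours stayed at or below 0.77 and 0.12 FPKM in all libraries. Clic6 likewise shared a locus with 2410124H12Rik, which reached 0.89 FPKM, and Prlr with Agxt2 and Gm21973, which reached 0.05 and 0.18 FPKM.

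At the early stage Ttr did not differ between genotypes beyond its spread. Early total RNA held 750.61 and 707.73 FPKM in controls, against 392.94 and 777.75 FPKM in SMA. The 2 SMA brains lay on both sides of the controls, and the low one was SMA replicate 1, whose number in polysomal RNA was at 912.41 FPKM, close to the controls. Early polysomal values were 976.76 and 956.27 FPKM in controls and 1036.62 FPKM in the other SMA brain, and the genotypes overlapped. The log2 difference was -0.40 (SE 0.41) in total and 0.0090 (SE 0.23) in polysomal RNA. The late effect was larger than the early one by 1.28 on the log2 scale in total RNA (SE 0.36, interaction adjusted p = 0.486; 0.79 without early SMA replicate 1) and by 0.90 in polysomal RNA (SE 0.21, interaction adjusted p = 0.241).

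Folr1 (chr7:101858331-101870788, minus strand), the folate receptor that carries folate across the plexus epithelium, had the same shape. Late total values were 9.19, 8.35 and 9.26 FPKM in controls against 16.52, 13.28 and 13.84 FPKM in SMA. All SMA brains were above all controls, by 1.63 times in the mean (log2 difference 0.69, SE 0.10, limma adjusted p = 0.18). In late polysomal RNA the values were 13.69, 11.35 and 9.67 FPKM in controls against 16.01, 18.63 and 15.47 FPKM in SMA, again without overlap (log2 difference 0.54, SE 0.15, limma adjusted p = 0.353). Early total values overlapped, with 13.92 and 11.89 FPKM in the controls against 12.75 and 14.59 FPKM in SMA. Early polysomal RNA had 21.47 and 17.72 FPKM in the controls, and both SMA brains were slightly below, at 16.99 and 17.36 FPKM (log2 difference -0.18, SE 0.13, limma adjusted p = 0.526).

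Enpp2, Sostdc1 and Kl, whose products are also released from the epithelium, did not pass the test at either stage. Enpp2 (chr15:54838901-54952892, minus strand) encodes autotaxin, the secreted enzyme that makes lysophosphatidic acid, and oligodendrocytes express it as well. Late total values of Enpp2 were 31.67, 37.01 and 29.45 FPKM in controls and 43.94, 38.49 and 33.74 FPKM in SMA, with overlap (log2 difference 0.24, SE 0.13). The markers of oligodendrocytes had 0 of 6 genes called there, with a median log2 difference of 0.28. Sostdc1 (chr12:36314139-36318452, plus strand) encodes a secreted antagonist of bone morphogenetic protein and Wnt signalling. In late total RNA Sostdc1 was at 3.32, 2.87 and 3.02 FPKM in controls and at 3.36, 3.41 and 3.44 FPKM in SMA, a separation of 0.15 on the log2 scale (SE 0.083, limma adjusted p = 0.628) with no overlap. In total RNA at day 5 Sostdc1 was at 3.58 and 3.24 FPKM in the controls and lower in SMA, at 2.19 and 2.79 FPKM (log2 difference -0.45, SE 0.18, limma adjusted p = 0.551). That difference did not pass the test. Its late effect exceeded the early one by 0.59 in total RNA (SE 0.17, interaction adjusted p = 0.486).

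Kl (chr5:150952607-150993817, plus strand) encodes klotho, the co-receptor for fibroblast growth factor 23 and a shed protein of the cerebrospinal fluid. Because its mean was under the filter, its test comes from a fit with the filter lowered to 0.1 FPKM. Late total Kl was at 1.00, 1.01 and 0.92 FPKM in controls and at 1.29, 1.19 and 1.12 FPKM in SMA, and late polysomal Kl at 0.95, 1.01 and 1.04 FPKM against 1.41, 1.09 and 1.13 FPKM. SMA brains were above controls without overlap in both, but the log2 differences of 0.27 (SE 0.13, limma adjusted p = 0.588) and 0.24 (SE 0.14, limma adjusted p = 0.591) did not pass the test. At such levels the pseudocount of 0.1 FPKM makes the log2 difference smaller than that of the values themselves. In early total RNA Kl stood at 0.73 and 0.85 FPKM in controls and at 1.07 and 0.86 FPKM in SMA (limma adjusted p = 0.651).

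Of the water and ion transport genes, Aqp1 (chr6:55336432-55348555, plus strand), the water channel of the apical membrane, was at 2.08, 2.2 and 2.29 FPKM in late control total RNA and at 3.76, 2.86 and 2.86 FPKM in SMA. In late polysomal RNA it was at 2.65, 1.88 and 1.79 FPKM in controls and at 4.25, 4.08 and 3.09 FPKM in SMA. No SMA library fell within the control range in either fraction. The log2 differences were 0.50 (SE 0.13, limma adjusted p = 0.365) and 0.83 (SE 0.20, limma adjusted p = 0.301). At day 5, total RNA of Aqp1 was at 3.09 and 2.96 FPKM in the controls against 3.18 and 3.91 FPKM in SMA (log2 difference 0.21, SE 0.16, limma adjusted p = 0.595).

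Clic6 (chr16:92485736-92541243, plus strand), a member of the chloride intracellular channel family that is abundant in the plexus, had the largest log2 differences of the 9 tested members at the late stage. Its late total values were 1.62, 1.36 and 1.33 FPKM in controls and 2.98, 2.80 and 2.50 FPKM in SMA (log2 difference 0.90, SE 0.11, limma adjusted p = 0.132). Late polysomal Clic6 was at 2.02, 1.56 and 1.65 FPKM in controls and at 4.07, 3.13 and 3.08 FPKM in SMA (log2 difference 0.93, SE 0.16, limma adjusted p = 0.202). The mean was 1.92 times higher in total and 1.97 times higher in polysomal RNA, with no overlap. Unlike Ttr and Folr1, Clic6 was above the controls without overlap already at day 5, with total values of 1.94 and 2.40 FPKM in the controls against 2.51 and 3.57 FPKM in SMA. That early difference of 0.45 (SE 0.25, limma adjusted p = 0.553) did not pass the test, and 25.1% of all genes tested had early total SMA libraries above the controls without overlap. The late effect of Clic6 was not shown to differ from the early one (difference 0.44, SE 0.25, interaction adjusted p = 0.513, in total RNA).

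Kcne2 (chr16:92292389-92298129, plus strand) encodes an accessory subunit of potassium channels in the apical membrane. Late total values of Kcne2 were 1.38, 1.29 and 1.23 FPKM in controls and 1.89, 1.68 and 1.57 FPKM in SMA, without overlap (log2 difference 0.37, SE 0.092, limma adjusted p = 0.344). In late polysomal RNA the values were 1.60, 1.39 and 1.79 FPKM against 2.43, 1.93 and 1.68 FPKM, which overlapped (log2 difference 0.31, SE 0.16, limma adjusted p = 0.562). At day 5 Kcne2 pointed the other way, with total values of 3.02 and 2.62 FPKM in the controls against 2.02 and 2.26 FPKM in SMA. Both early SMA libraries were below the controls in total and in polysomal RNA, as they were for 22.5% and 26.6% of all genes tested, and neither difference passed the test (limma adjusted p = 0.551 and adjusted p = 0.439). The change between stages was 0.75 in total RNA (SE 0.17, interaction adjusted p = 0.486) and 0.80 in polysomal RNA (SE 0.28, interaction adjusted p = 0.327).

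Prlr (chr15:10177238-10349180, plus strand), the prolactin receptor, which the plexus epithelium carries at a high level, was the 1 member called at day 5. Early polysomal Prlr was at 0.75 and 0.60 FPKM in controls and at 1.52 and 1.19 FPKM in SMA. The SMA libraries were above the controls, 2.01 times in the mean (log2 difference 0.91, SE 0.18, limma adjusted p = 0.381), while 12.5% of all genes tested were called in this comparison. The call was lost without control replicate 2. Early total Prlr, at 1.29 and 2.05 FPKM in controls and 1.97 and 1.16 FPKM in SMA, overlapped. No member was called in early total RNA, where 8.25% of all genes tested were (1258 genes, with 401 without control replicate 2 and 4319 without SMA replicate 2), and the median over the 9 members was -0.098. Late total Prlr was at 1.10, 1.18 and 1.37 FPKM in controls and at 2.02, 1.34 and 1.49 FPKM in SMA, and late polysomal Prlr at 1.24, 1.01 and 1.61 FPKM against 1.20, 1.19 and 1.73 FPKM, both with overlap.

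Otx2 (chr14:48657677-48673819, minus strand), a homeodomain transcription factor needed for the plexus to form and to be maintained, was the 1 regulator among the members. Its late total values were 2.53, 4.08 and 3.00 FPKM in controls and 6.25, 4.64 and 5.01 FPKM in SMA. All SMA libraries were above all controls, but the controls were spread widely (log2 difference 0.72, SE 0.21, limma adjusted p = 0.416). Late polysomal Otx2 was at 2.45, 3.69 and 3.00 FPKM in controls and at 5.22, 4.22 and 4.0 FPKM in SMA (log2 difference 0.55, SE 0.19, limma adjusted p = 0.419). The call depended on single libraries. Without SMA replicate 1, the highest, or without control replicate 3, the gene passed in neither fraction, and in polysomal RNA the call was also lost without control replicate 1 or SMA replicate 2. Day 5 values of Otx2 overlapped in both fractions, with total values of 6.59 and 5.96 FPKM in the controls against 4.72 and 6.97 FPKM in SMA.

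**Figure D2:**
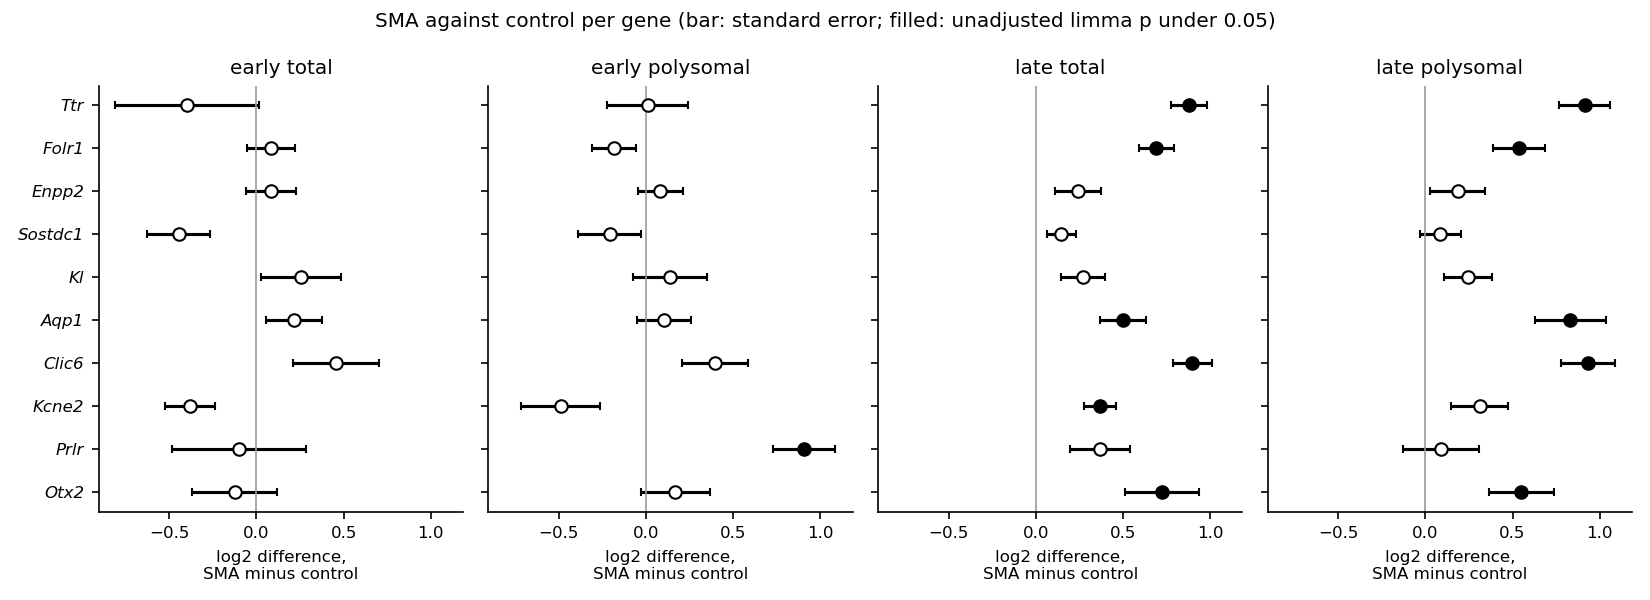
Log2 difference between SMA and control (x axis, SMA minus control) for each gene in the 4 comparisons, with its standard error as bar; filled points have an unadjusted limma p under 0.05. All 10 points lie above 0 in late total and late polysomal RNA, from 0.15 to 0.90 and from 0.087 to 0.93, while the early points lie on both sides of 0.

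Because Otx2 and the related homeodomain factors bind the core TAATCC, the stretch of 250 bases before the transcript start was searched for these letters on both strands (GGATTA on the other strand) in RefSeq promoters of build GRCm38.p6. The search covered 5 of the 10 members (Kl, Aqp1, Otx2, Prlr and Kcne2, with 11 promoters). It left out Ttr, Folr1, Clic6, Enpp2 and Sostdc1, so whether their promoters hold the letters was not tested. The share of member promoters given next holds for the searched genes only. The letters were present in 1 of the 11, a promoter of Otx2 itself, or 9.09%, beside 6.25% of all 32851 promoters in the table. They begin 211 bases before the start, at chr14:48665110-48665359, minus strand, and stand in capitals here. Aqp1 (chr6:55336049-55336298, plus strand) and Kcne2 (chr16:92292139-92292388, plus strand), which rose with Otx2 in late total RNA, are shown for comparison and do not hold the letters in this window. The starts are those of RefSeq: for Otx2, where the start lies inside the gene span given above, and for Aqp1, the 50 bases after it were not found in the Gencode M21 transcripts of the gene.
Otx2: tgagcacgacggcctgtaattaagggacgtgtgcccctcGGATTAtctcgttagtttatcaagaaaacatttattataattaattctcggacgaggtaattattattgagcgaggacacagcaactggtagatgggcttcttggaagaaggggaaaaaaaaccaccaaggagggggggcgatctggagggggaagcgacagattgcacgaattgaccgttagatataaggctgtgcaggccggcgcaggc
Aqp1: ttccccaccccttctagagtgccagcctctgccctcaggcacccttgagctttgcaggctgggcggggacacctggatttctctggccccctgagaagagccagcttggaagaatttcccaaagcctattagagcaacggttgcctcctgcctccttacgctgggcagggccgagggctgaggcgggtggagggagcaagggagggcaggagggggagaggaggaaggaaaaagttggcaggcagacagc
Kcne2: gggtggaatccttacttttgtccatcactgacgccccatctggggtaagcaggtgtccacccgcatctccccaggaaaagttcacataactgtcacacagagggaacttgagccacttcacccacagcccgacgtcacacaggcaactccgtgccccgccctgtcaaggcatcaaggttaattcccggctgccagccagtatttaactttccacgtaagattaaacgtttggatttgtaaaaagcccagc
A match of 6 letters is a description of the sequence only, since no binding was measured.

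Sex could be read from the libraries and was not balanced between the groups. By Xist against 4 Y-linked genes, both early controls were male, and early SMA replicate 1, the brain with low total Ttr, was female. At day 7 there were 2 female and 1 male controls and 1 female and 2 male SMA mice. Within each sex the late total values of SMA were above those of controls without overlap for 9 of the 10 genes in females (Enpp2 overlapped) and for 9 of the 10 in males (Prlr overlapped). With 3 libraries per sex, 39.4% of all genes tested did so in females and 31.9% in males. For Ttr, the female SMA brain was at 620.55 FPKM against 393.8 and 393.36 FPKM in female controls, and the male SMA brains at 794.26 and 710.8 FPKM against 363.62 FPKM in the male control. In late polysomal RNA SMA was above controls for 8 of the 10 genes in females, where Sostdc1 was lower, and for 9 of the 10 in males, where Prlr was lower, beside 31.4% and 36.1% of all genes tested. With sex added to the model after the data had been seen, 6 of 9 members were called in late total RNA and 4 of 9 in late polysomal RNA, where Otx2 was the one lost. Of all 15247 genes tested, 1458 and 1438 were called in these fits. At the early stage no control was female, so sex and genotype cannot be fully told apart there.

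A wider list of 36 other genes of the plexus epithelium was put together from textbook knowledge and many of its genes are also expressed elsewhere in the brain; 28 passed the filter. In late total RNA 6 of the 28 rose and none fell, with a median log2 difference of 0.17, beside 4.84% of all genes called higher. In late polysomal RNA 8 rose and 1 fell, with a median of 0.21, beside 5.35% and 5.38% of all genes. The summed FPKM of the 36 genes was 307 ± 14.6 (SD, n = 3) in control and 307 ± 17.7 in SMA late total RNA, and its most abundant gene, Igfbp2, made up 24.1% of the sum. Day 5 gave 2 genes higher and 1 lower of 28 in total RNA and 1 higher in polysomal RNA, where 8.25% and 12.5% of all genes were called.

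Of the 6 tested genes of junctions and keratins, 3 rose in each late fraction, with medians of 0.33 and 0.48, beside 4.84% and 5.35% of all genes called higher. The other parts of the wider list moved less in late total RNA. There 2 of 8 transporters and channels, 1 of 11 secreted and surface proteins and 0 of 3 transcription factors rose, with medians of 0.15, 0.056 and 0.090. The summed FPKM of the secreted and surface proteins was 180 ± 10.2 in control and 172 ± 9.96 (SD, n = 3) in SMA. Cldn1, a claudin of the epithelial tight junction, went from 1.65 ± 0.312 to 2.65 ± 0.0833 FPKM (SD, n = 3) in late total RNA (log2 difference 0.67, limma adjusted p = 0.323) and was also higher in late polysomal RNA (0.57, limma adjusted p = 0.164) and in early total RNA (0.67, limma adjusted p = 0.551). Cldn2, the claudin of leaky, water-permeable epithelia, rose by 0.88 in late polysomal RNA (limma adjusted p = 0.284), from a control level of 1.03 FPKM. Spint2, a membrane-bound protease inhibitor of epithelia, rose there from 11.8 to 18 FPKM (0.60, limma adjusted p = 0.161), and Krt18, a keratin of simple epithelia, rose by 0.39 in late total RNA (limma adjusted p = 0.327). Of the transport genes, Slc13a4, a sulfate transporter, rose by 0.45 in late total RNA (limma adjusted p = 0.326) and Car14, a membrane carbonic anhydrase, by 0.58 in late polysomal RNA (limma adjusted p = 0.442). Ace, the angiotensin-converting enzyme on the surface of the epithelium and of vessels, rose by 0.38 in late total RNA (limma adjusted p = 0.365). Igfbp2, an insulin-like growth factor binding protein, was the 1 gene that fell, by 0.21 in late polysomal RNA (limma adjusted p = 0.41). At day 5 Trpm3, a cation channel, was higher in total (0.44, limma adjusted p = 0.551) and polysomal RNA (0.35, limma adjusted p = 0.393), and Rdh5, a retinol dehydrogenase, was lower in total RNA (-0.46, limma adjusted p = 0.551). None of these passed adjustment over all genes.

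Of the 40 promoters of 33 genes of the wider list, 3 held TAATCC in the same window, or 7.5%. They belong to Abca4, Ace and Car14, and the last pair is shown because both genes rose at day 7. The letters begin 27 bases before the start in Ace (chr11:105967698-105967947, plus strand) and 61 bases before it in Car14 (chr3:95904686-95904935, minus strand).
Ace: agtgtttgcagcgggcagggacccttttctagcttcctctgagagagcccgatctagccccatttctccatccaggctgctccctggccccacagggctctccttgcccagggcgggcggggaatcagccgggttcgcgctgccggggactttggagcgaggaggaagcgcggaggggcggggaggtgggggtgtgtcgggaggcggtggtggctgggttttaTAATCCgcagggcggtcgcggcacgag
Car14: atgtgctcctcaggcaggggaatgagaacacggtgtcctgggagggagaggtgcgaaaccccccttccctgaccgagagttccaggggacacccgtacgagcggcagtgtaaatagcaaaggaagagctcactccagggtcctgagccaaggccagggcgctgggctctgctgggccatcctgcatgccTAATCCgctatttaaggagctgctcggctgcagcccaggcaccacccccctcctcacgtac
For Abca4, whose mean was below 1 FPKM, no difference was tested.

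Genes that work with the members were taken from 7 lists of carriers, receptors and enzymes, of which 51 genes were tested. In late total RNA 6 rose and 2 fell, and in late polysomal RNA 8 rose and 2 fell, with medians of 0.031 and 0.017. Of all genes tested, 4.84% were called higher and 4.7% lower in total, and 5.35% and 5.38% in polysomal RNA. At day 5, 5 of the 51 were higher and 2 lower in total RNA, and 1 was higher and 4 lower in polysomal RNA, where 8.25% and 12.5% of all genes were called in either direction. Slco1c1, a transporter of thyroxine in brain capillaries and plexus, was lower in SMA in all 4 comparisons and was the 1 partner past adjustment. It went from 20.5 ± 1.12 to 11.9 ± 0.138 FPKM (SD, n = 3) in late total RNA (log2 difference -0.79, limma adjusted p = 0.0212) and fell by 0.90 in late polysomal RNA (limma adjusted p = 0.0483). Stra6, the membrane receptor for retinol-binding protein, rose by 0.68 in late total and by 0.45 in late polysomal RNA, whereas Rbp4, the binding protein itself, fell by 0.27 in late polysomal RNA, both without passing adjustment. Hr, a target of the thyroid hormone receptor, fell by 0.65 in late total RNA (limma adjusted p = 0.485).

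Among the fibroblast growth factor receptors that klotho partners, Fgfr3 rose by 0.53 in late total RNA (limma adjusted p = 0.0535) and by 0.48 in late polysomal RNA, and was also higher in early total RNA (0.42). Fgfr1 was higher at day 5 in total (0.47) and polysomal RNA (0.49). The ligands Fgf23, Fgf21 and Fgf15 had means below 1 FPKM. For Prlr, the ligand genes Prl and Gh had means below 1 FPKM, and 0 of the 6 tested genes of its signalling list were called in any of the 4 comparisons. In the list of bone morphogenetic protein and Wnt signalling, in which Sostdc1 acts as an antagonist, 4 of 14 genes rose in late total RNA, beside 4.84% of all genes called higher. At day 5, 1 of the 14 was higher in total RNA and 2 were lower in polysomal RNA, where 8.25% and 12.5% of all genes were called. The late values of single genes are given first. Bmp7 rose by 0.45 (limma adjusted p = 0.341) and Bmp6 by 0.37 (limma adjusted p = 0.319) in late total RNA, and Lrp5, a Wnt co-receptor, by 0.30 in late polysomal RNA (limma adjusted p = 0.395). At day 5 the Wnt co-receptor family member Lrp4 was higher in total RNA (0.60), while Id1 and Id3, targets of bone morphogenetic protein signalling, were lower in polysomal RNA (-0.68 and -0.56). Slc5a3, the inositol transporter, was higher in early total RNA (0.56), Lpar4, a lysophosphatidic acid receptor, was lower there (-0.33), and Tyms, the folate-dependent thymidylate synthase, was lower in early polysomal RNA (-1.02, limma adjusted p = 0.161).

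Other cell types were measured beside the plexus, since they neighbour it or share genes with it. Ependymal markers had 0 of 8 called in all 4 comparisons, with a median log2 difference of 0.13 in late total and 0.18 in late polysomal RNA, and their most abundant gene, Rarres2, had a mean of 9.18 FPKM. At day 5 the medians were -0.28 in total and -0.35 in polysomal RNA. Early SMA replicate 1, the total library with low Ttr, had a summed ependymal FPKM of 25.61, against 38.8 in the other SMA library and 37.87 and 38.28 in the controls. At day 7 the sum was 35.3 ± 0.631 in control and 38.5 ± 4.69 (SD, n = 3) in SMA late total RNA. Vessel genes were lower in SMA at both stages. At day 5 endothelial markers fell in 7 of 8 cases in total and 5 of 8 in polysomal RNA, and pericyte markers in 3 of 5 and 2 of 5. Of all 15247 genes tested, 593 and 1040 were called lower in these comparisons. The summed total FPKM of endothelial cells was 83.7 ± 5.2 in control and 42.3 ± 4.53 (SD, n = 2) in SMA. At day 7 endothelial markers fell in 7 of 8 cases in both fractions (medians -0.58 and -0.62, most abundant gene Cldn5), and pericyte markers in 5 of 5 (medians -0.82 and -0.80, most abundant gene Rgs5). Of all genes tested, 4.7% were called lower in late total and 5.38% in late polysomal RNA. The sums of the 2 genotypes did not overlap, at 60.7 ± 8.43 against 34.99 ± 2.77 FPKM for endothelial cells and 51.1 ± 1.87 against 24.4 ± 1.75 FPKM for pericytes in late total RNA.

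The choroid plexus also holds vessels and a fibroblast stroma. Markers of leptomeningeal and perivascular fibroblasts split, with 5 of 9 lower and 2 of 9 higher in both late fractions. Of all genes tested, 4.7% were called lower and 4.84% higher in total, and 5.38% and 5.35% in polysomal RNA. Those lower in total RNA were Col1a1, Col1a2, Lum, Ogn and Dcn, and those higher were Slc6a13, at 0.69, and Aldh1a2, at 0.52. The most abundant gene of this list was Col1a2, and none of its genes was at 0. The part of these shifts in the values of the 10 genes was not tested.

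**Figure D3:**
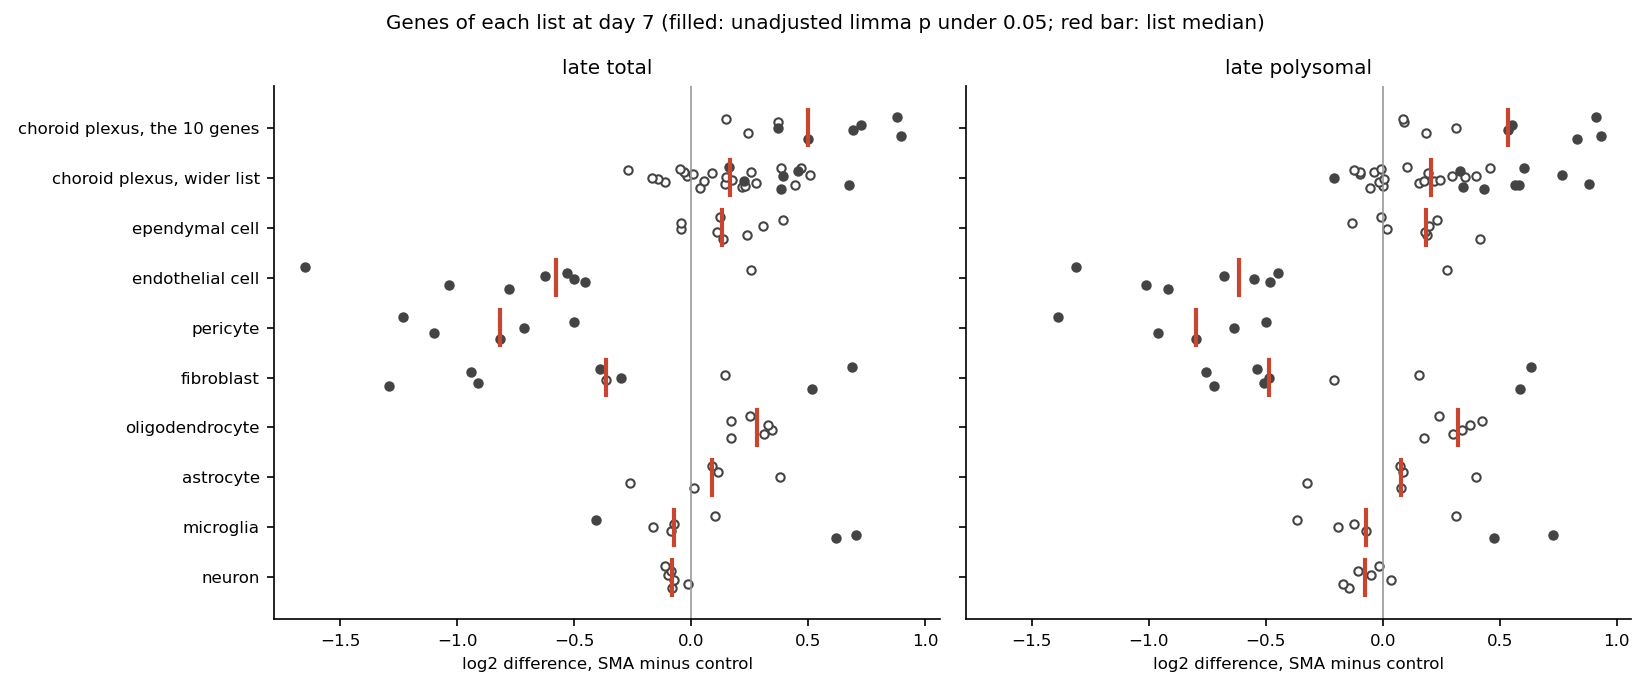
Log2 difference between SMA and control at day 7 (x axis) for every tested gene of each list (Kl was below the filter); filled points have an unadjusted limma p under 0.05 and the red bar is the list median. The 9 choroid plexus genes have medians of 0.50 and 0.54, the wider plexus list 0.17 and 0.21, and endothelial and pericyte genes lie almost wholly below 0.

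In control brains most of the 10 genes went down between day 5 and day 7. Both early controls were male, against 2 females and 1 male among the late controls. The part of sex in this comparison of ages was not tested. In total RNA 6 of the 9 tested fell and none rose (Kcne2, Otx2, Ttr, Clic6, Folr1 and Aqp1), with a median log2 difference of -0.52, in a comparison in which 20.1% of all genes were called lower and the median over all genes was -0.027. In polysomal RNA the same 6 fell and Prlr rose, with a median of -0.76, beside 21.4% of all genes called lower and 20.7% called higher. Adjustment left 4 in each fraction, beside 21.2% and 20.6% of all genes, which were Ttr, Folr1, Aqp1 and Kcne2 in total and Ttr, Clic6, Aqp1 and Kcne2 in polysomal RNA. These adjusted calls depended on single libraries. When 1 library was left out, 0 members passed in total RNA, except Ttr without late control replicate 2 and Ttr and Kcne2 without late control replicate 3, and 0 passed in polysomal RNA, except Kcne2 without early control replicate 2. Over all genes, the count called lower went from 3071 to 1908 in total RNA without early control replicate 2 and from 3262 to 1928 in polysomal RNA without early control replicate 1. The count past adjustment went from 3237 to 187 in total RNA without early control replicate 2 and from 3134 to 144 in polysomal RNA without late control replicate 2. Kcne2 had the largest change, by -1.06 (SE 0.10, limma adjusted p = 0.0135) in total and by -1.36 (SE 0.20, limma adjusted p = 0.0256) in polysomal RNA, so that its mean at day 5 was 2.17 and 2.68 times that at day 7. Ttr fell by 0.93 on the log2 scale in each fraction (limma adjusted p = 0.00928 and adjusted p = 0.0293). Of the calls, that of Otx2 was lost in total RNA without early control replicate 1 and in polysomal RNA without either early control or late control replicate 3. In total RNA Clic6 was lost without early control replicate 2 or late control replicate 2. In polysomal RNA Folr1 was lost without early control replicate 1 and Prlr without early control replicate 2. Enpp2 and Kl were higher at day 7 in both fractions without overlap, as were 27.6% and 28.2% of all genes tested, and without passing the test (limma adjusted p = 0.13 and adjusted p = 0.315 in total RNA).

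The early controls, the late controls and the late SMA brains can be read side by side, with the caution that the comparison of ages and that of genotypes share the late control libraries and so are not independent. Mean total Ttr was 729 ± 30.3 FPKM (SD, n = 2) in early controls, 384 ± 17.3 FPKM (n = 3) in late controls and 709 ± 86.9 FPKM (n = 3) in late SMA. Mean total Folr1 was 12.9, 8.93 and 14.5 FPKM in the same order, and Clic6 was 2.17, 1.44 and 2.76 FPKM. For Kcne2 the late SMA mean of 1.71 FPKM stayed well below the early control mean of 2.82 FPKM. The late SMA mean was within the range of the early controls for 3 members in total RNA (Ttr, Prlr and Sostdc1) and for 2 in polysomal RNA (Ttr and Sostdc1). Each such range is that of 2 libraries, and the share over all genes was not counted. Of these members, Prlr in total RNA and Sostdc1 in both fractions were not called between ages. SMA brains at day 5 had mean total Ttr of 585 ± 272 FPKM.

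Besides Ttr, Folr1, Kcne2 and Sostdc1, the late effect exceeded the early one for Otx2 in total RNA (0.85, SE 0.34, interaction adjusted p = 0.486) and for Aqp1 in polysomal RNA (0.73, SE 0.29, interaction adjusted p = 0.35), and for Prlr in polysomal RNA it was smaller (-0.82, SE 0.33, interaction adjusted p = 0.357). That made 5 of 9 members called in each fraction, where 10.1% and 13.7% of all genes were called in either direction. None passed adjustment. The polysomal count went down to 3 when any of 6 libraries was left out (early control replicate 1, early SMA replicate 1, late control replicate 2 or 3, late SMA replicate 1 or 2), and the Ttr call stayed in all of them. Single calls were also lost: Otx2 in total RNA kept its call in 3 of 10 omissions (early SMA replicate 2, late control replicate 2 or late SMA replicate 2 left out) and Aqp1 in polysomal RNA in 3 of 10 (early control replicate 2, late control replicate 1 or late SMA replicate 3). Prlr in polysomal RNA kept it in 4 of 10 (early control replicate 1, early SMA replicate 2, late control replicate 2 or late SMA replicate 3). Kcne2 lost it there without early control replicate 1, early SMA replicate 2 or late control replicate 2, and Folr1 without early control replicate 1. Calls were gained there for Sostdc1 without early control replicate 1 and for Clic6 without early SMA replicate 2 or late control replicate 1.

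Polysome association was compared by setting polysomal against total RNA. In early controls Folr1 (0.60), Clic6 (0.54) and Aqp1 (0.50) were higher in polysomal RNA and Prlr was lower (-1.16, SE 0.27, limma adjusted p = 0.143), in a comparison in which 25.9% of all genes were called. In late controls Ttr (0.40, limma adjusted p = 0.0709) and Folr1 (0.36, limma adjusted p = 0.197) were higher and none lower, beside 25.3% of all genes. With libraries of 1 number as a block, the calls in early controls were Folr1, Clic6, Prlr, Enpp2 and Kcne2, and those in late controls Ttr, Clic6 and Enpp2, beside 20.5% and 29.1% of all genes called in the same fits. Without the block, the late call of Folr1 was lost when both libraries of control replicate 1 or both of control replicate 2 were left out. That of Ttr was lost without both libraries of control replicate 2. Polysomal Ttr was 1.33 times total Ttr in control brains at both ages. A gain in polysomal over total FPKM is relative to the other RNAs of each library and gives no absolute load of ribosomes.

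No member was called for a change in translation efficiency, the polysomal level relative to the total level, between SMA and control. The genotype by fraction test called 0 of 9 at day 5 and 0 of 9 at day 7, with 2.32% and 2.07% of all genes called by limma, and the adjusted p of every member was 1. Of all genes, 94 passed adjustment at day 5 and 6 at day 7. The day 7 count was 5 to 11 when the total and polysomal libraries of 1 number were left out together. At day 5 such an omission leaves 1 library in a group. At the late stage the differences ran from -0.28 for Prlr to 0.33 for Aqp1 (SE 0.29 and 0.25), with 0.034 for Ttr (SE 0.18). At day 5 the spread was wider, from -0.27 for Folr1 to 1.00 for Prlr (SE 0.19 and 0.47).

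**Figure D4:**
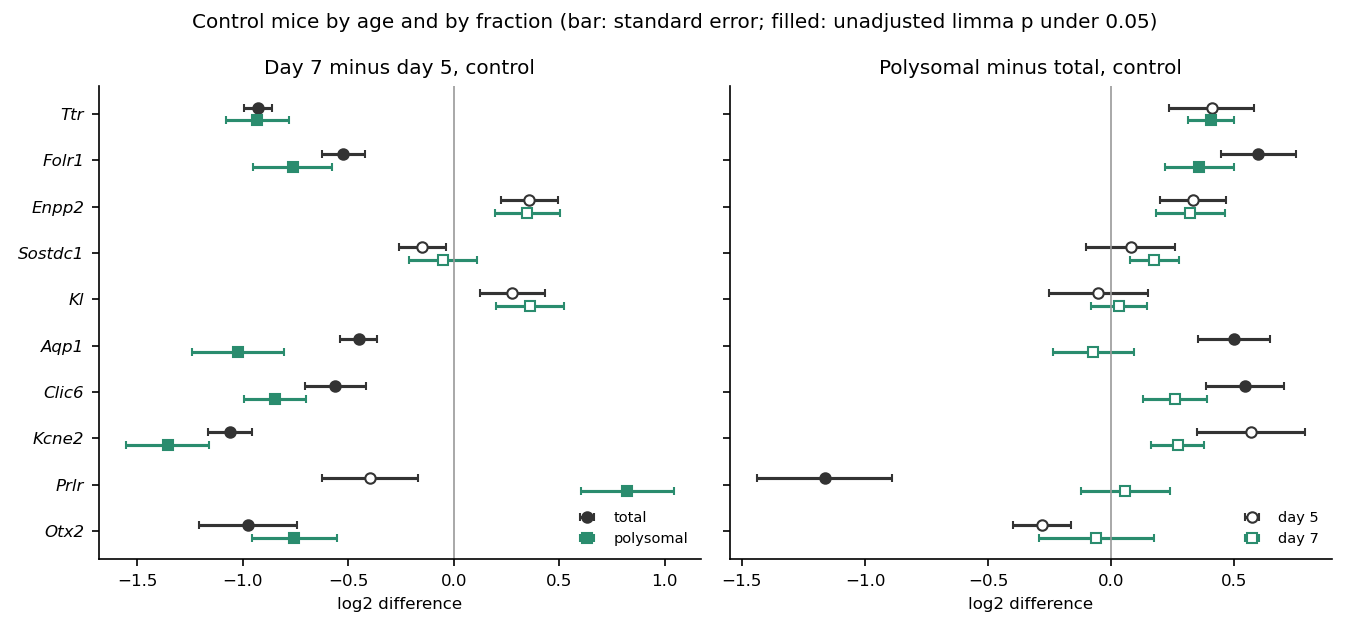
Log2 differences in control brains for each gene, day 7 minus day 5 at left (circles total, squares polysomal RNA) and polysomal minus total at right (circles day 5, squares day 7); bars are standard errors and filled points have an unadjusted limma p under 0.05. Ttr, Folr1, Aqp1, Clic6, Kcne2 and Otx2 lie below 0 in both fractions at left, while Enpp2 and Kl lie above it.

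Across the 20 libraries the members did not form a single block. As a description over libraries that share groups and may share mice, the highest Pearson r of log2 FPKM was 0.91 for Clic6 with Aqp1, followed by 0.90 for Ttr with Folr1 and 0.90 for Folr1 with Aqp1. After the group means were taken out, Folr1 with Aqp1 remained at 0.82 and Ttr with Clic6 at 0.75. Prlr and Kl had the lowest median r with the other members, at -0.17 and -0.089, and Kl ran most against Kcne2 (-0.58). Within groups the median r was -0.28 for Prlr and 0.16 for Kl, which was then above those of Folr1 (0.12) and Kcne2 (0.13).

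The genes whose levels followed the mean of the 10 members most closely, out of 14326 ranked over the 20 libraries, were Aldh1a2 (r 0.90), Pdgfd, Timp4, Bmp6, Fzd10, C1qa, Fcna, Nqo1, Snrpa1 and Nudt9 (0.84). Closest to Ttr alone were 1500015O10Rik (0.89), Nudt9, Apoe, Fzd10, Calml4, Gm20444, Nkain4, Oaf, Alg5 and Rtca (0.85). Calml4 is on the wider plexus list, Aldh1a2 on the fibroblast list and C1qa on the microglia list. In brain RNA, Apoe is mostly an astrocyte transcript, at a mean of 1160 FPKM here.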

How the data were processed

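Total cytoplasmic and polysomal RNA of mouse brain had been sequenced with a stranded total RNA kit in biological duplicate (day 5) or triplicate (day 7), and groups were taken from the sample labels. The deposited values are FPKM, which the authors made with TopHat2 (2.0.14) and Cufflinks (2.2.1) on GRCm38.p4, per the submitters' notes; the annotation was Gencode M6, and programs were run with default settings, per the methods, under which strand is not used, so genes that overlap on opposite strands cannot be told apart. Their tests, which need alignments or counts, were not run. Instead, log2(FPKM + 0.1) was fitted with limma (3.58.1, R 4.3.3; lmFit and eBayes with trend) for each comparison over the 15247 genes averaging 1 FPKM or more across the libraries. Log2 differences are on this scale, which understates those of low genes. Genes were called at an unadjusted two-sided p under 0.05, with Benjamini-Hochberg values over all tested genes beside it. The fits were tested on simulated data. The genes named are the 10 members, up to 4 genes per direction and comparison with the largest log2 difference among called genes of the wider plexus and partner lists whose genotypes do not overlap, the most abundant gene and those at 0 of each cell type list, and the 10 genes with the highest Pearson r to the member mean and to Ttr. Fibroblast genes, Tubb3, Abca4, Fgf ligands and genes sharing a locus were named after their values were seen. The members and lists were chosen with earlier results of these data known. Alternatives were other pseudocounts, filters and scalings, a transcript length correction, 1 model over all libraries, a replicate block, sex as a term (added after the data were seen), and leaving out 1 library at a time. In fits that use both fractions, the total and polysomal libraries of 1 number were left out together. Promoters are from RefSeq (GRCm38.p6). Python (3.11.15) and pandas (2.3.3) were used for the remaining steps.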

Additional observations from a re-analysis of the deposited data

Results flagged for a closer look

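The SMA effect differed between day 7 and day 5 for several of the 10 genes, by the limma interaction of genotype and stage. In total RNA the late minus early effect on the log2 scale was 1.28 for Ttr, 0.85 for Otx2, 0.75 for Kcne2, 0.61 for Folr1 and 0.59 for Sostdc1. The Ttr value was 0.79 without early SMA replicate 1, whose total Ttr was low. In polysomal RNA it was 0.90 for Ttr, 0.80 for Kcne2, 0.73 for Aqp1, 0.72 for Folr1 and -0.82 for Prlr. For Kcne2 and Sostdc1 in total RNA, both early SMA libraries were below the early controls and all late SMA libraries above the late controls. For Prlr, the early control polysomal libraries, in which 63 other genes were listed at 0, were at 0.75 and 0.60 FPKM, and the value did not pass the test under quantile normalization or in 6 of 10 omissions of 1 library. None of these passed Benjamini-Hochberg adjustment over all genes tested. Both early controls were male while the late controls were mixed, and the part of sex in these differences was not tested. Groups of 2 or 3 libraries were too small for a test of single outlying libraries.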

How the results depend on the processing

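The late rises of Ttr, Clic6, Folr1 and Aqp1 in total and polysomal RNA kept their direction and an unadjusted p under 0.05 under every alternative that gave a value, with log2 differences of Ttr from 0.79 to 0.97 in total and from 0.82 to 1.03 in polysomal RNA. After Benjamini-Hochberg adjustment 0 members were called in early polysomal, late total and late polysomal SMA against control, in both late minus early effects, and in both comparisons of polysomal with total RNA, and 4 in polysomal RNA between ages. With the filter at a mean of 5 FPKM, which left 3 members (Ttr, Enpp2 and Folr1), the count was 2 in late total, late polysomal, both late minus early effects and both comparisons of ages, 1 in early control polysomal against total, and 0 in early polysomal SMA against control. Of all 10769 genes left, 977, 1088, 1203, 1622, 4915, 4965, 3106 and 1331 were called in the same order, with total before polysomal RNA. In early total SMA against control the count rose from 0 to 1 with the length correction, to 1 without the trend and to 2 with 1 model over all 20 libraries. Of all 15247 genes, these fits called 1150, 1340 and 3013. In early polysomal SMA against control the member count was 0 with quantile normalization and 2 with 1 model, beside 2023 and 3814 of all genes. That model called 1 member for early translation efficiency, beside 590 of all genes. In late control polysomal against total RNA the member count was 1 without a filter, where 5459 of 34288 genes were called. It was 5 with quantile normalization, where 3653 of 15247 were. The cause of these shifts was not tested.

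Leaving out 1 library at a time (a lone early library was taken to vary like the other group) gave counts from 0 to 2 in early total RNA, from 0 to 1 for early translation efficiency, from 3 to 5 for the polysomal late minus early effect and from 1 to 2 for late control polysomal against total RNA. The early value of 2 came without SMA replicate 2. Counts of calls over all genes also moved: from 791 to 3023 in early polysomal SMA against control (1902 with all libraries), from 542 to 1274 higher in late polysomal RNA (816), from 301 to 952 and from 276 to 722 for early and late translation efficiency (354 and 315), from 796 to 4220 and from 1200 to 3717 for the total and polysomal late minus early effects (1547 and 2084), and from 2460 to 2809 in late control polysomal against total RNA (3860). In the fits of translation efficiency and of polysomal against total RNA, each omission took out the total and polysomal libraries of 1 number together. Small differences changed sign. In early total RNA the log2 differences ran from -0.89 to 0.094 for Ttr, from -0.40 to 0.15 for Otx2, from -0.041 to 0.21 for Enpp2, from -0.029 to 0.20 for Folr1 and from -0.46 to 0.26 for Prlr. In early polysomal RNA they ran from -0.083 to 0.10 for Ttr, from -0.034 to 0.20 for Enpp2, from -0.022 to 0.22 for Aqp1 and from -0.039 to 0.38 for Otx2, and in late polysomal RNA from -0.076 to 0.25 for Prlr and from -0.0054 to 0.13 for Sostdc1. Sex as a term acts at day 5 on the 1 female library alone, so its values for early total Ttr (0.094) and Otx2 (0.15) are those without SMA replicate 1 and say nothing of sex; equal medians turned early polysomal Ttr to -0.018. Another alternative scaled each library to the same summed FPKM of coding genes, with Ttr and the haemoglobins left out of the sum. The main fit had no such scaling, so the part of these genes alone was not tested. This scaling shifted the median log2 difference of all genes by 0.095 in early total and 0.12 in early polysomal RNA. For the total and polysomal late minus early effects it shifted the median by -0.12 and -0.14. It moved the split of higher against lower calls from 665 and 593 to 755 and 305 in early total and from 862 and 1040 to 1635 and 564 in early polysomal RNA.

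Labels share replicate numbers, and whether 1 brain gave both fractions is not given in the sources used here. Total and polysomal libraries of 1 number read as the same sex in all 10 cases, but they correlated in their deviations by only -0.039 to 0.11 over all genes tested, and by 0.029 to 0.49 over the 8485 coding genes of at least 5 FPKM, where each of the late total libraries correlated best with its own number (with 2 early libraries per group this cannot be judged). The test of pairing thus depended on the genes used, and fits without and with the block are both given for polysomal against total RNA. For SMA against control the replicate block joined control and SMA libraries of 1 number instead. These are different mice, and no link between them is given. Late libraries so joined correlated in their deviations by -0.139 to 0.0444 over the 8485 coding genes. With this block, 5 members were called in late total and 4 in late polysomal RNA, Otx2 being lost in both, beside 8.6% and 9.37% of all genes. At day 5 the block called 0 members in total RNA, where 728 of 15247 genes were called, and 1 in polysomal RNA, beside 13.2%. For translation efficiency it called 0 members at either stage, with 423 genes at day 5 and 659 at day 7 (354 and 315 without the block). It called 5 and 3 members for early and late control polysomal against total RNA, beside 20.5% and 29.1% of all genes. With 2 or 3 libraries per group, small differences could not be detected.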
